A study of Mus musculus with 18 samples.

Results

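The genes described here mostly encode nuclear subunits of the respiratory complexes II, III and IV and of the ATP synthase, complex V. They were measured in mouse oocytes arrested at the germinal vesicle stage, before the first meiotic division. They were chosen as every probe whose annotated gene symbol begins with Sdha to Sdhd, Uqcr, Cox4i, Cox5, Cox6, Cox7, Cox8 or Atp5. The rule found 74 of the 45281 probes of an Illumina mouse bead array, for 47 genes. Because the prefix Sdha also takes in Sdhaf1 to Sdhaf4, the assembly factors of complex II are among them and are counted apart.

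Complex II, succinate dehydrogenase, takes electrons from succinate to ubiquinone; complex III passes them to cytochrome c; complex IV, cytochrome c oxidase, hands them to oxygen. Complexes III and IV pump protons across the inner mitochondrial membrane, and complex V lets the protons back to make ATP. A growing oocyte feeds its respiratory chain largely with pyruvate supplied by the granulosa cells around it, and the mitochondria it stores are those of the early embryo. Nuclear genes encode all subunits of complex II and most of those of the other complexes, many of them under nuclear respiratory factor 1 (NRF1) and the ETS factor GABP.

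RNA was measured in 18 pools of about 100 oocytes, each pool from at least 2 females aged 4 weeks of the outbred albino MF1 strain, 45 to 48 hours after PMSG, a gonadotrophin that makes follicles grow, and after removal of the cumulus cells. The 6 genotypes had 3 pools each, and all were XX females that differed in the Y-chromosomal genes they carried as transgenes. They were XX without a transgene, Zfy2-nf with a non-functional Zfy2 transgene, Zfy1-lo with a single-copy Zfy1 transgene, Zfy1-hi with a multi-copy Zfy1 transgene, Zfy2 with a Zfy2 transgene, and Zfy2+Eif2s3y with a Zfy2 transgene and, in a proportion of the cells, an Eif2s3y transgene. The submitters' design text calls the last group contaminated. Zfy1 and Zfy2 encode zinc finger proteins related to the X-linked factor Zfx, and Eif2s3y encodes a subunit of the translation factor eIF2. The labels place XX, Zfy2-nf, Zfy1-lo and Zfy2+Eif2s3y in batch 1 and Zfy1-hi and Zfy2 in batch 2. Array names gave 3 slides: all Zfy2+Eif2s3y arrays lay on slide 2 with 1 array of each other batch 1 group, and batch 2 was slide 3. A comparison of Zfy2 or Zfy1-hi with XX therefore cannot tell genotype and batch apart.

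The arrays detected 40.1 to 44.8% of their probes, and replicates of a genotype correlated across probes at r = 0.967 to 0.987. Of 19 listed oocyte markers 18 were detected on every array, among them Zp3, Gdf9 and Nlrp5. Of 15 granulosa and cumulus markers with a probe, 4 were detected on every array (Cyp11a1, Nr5a2, Kitl and Col4a1) and Ptx3 on none. Their summed intensity was 874.1 to 1069 in Zfy2, 1257 to 1348 in Zfy1-hi and 923.2 to 1694 in Zfy2+Eif2s3y. It was 1224 to 1373 in XX, 1308 to 1584 in Zfy2-nf and 1327 to 1478 in Zfy1-lo. The Zfy2 arrays thus lay below all arrays of XX, Zfy2-nf, Zfy1-lo and of Zfy1-hi, their partner in batch 2. Of these 15 markers 3 were called in a comparison within a batch, as were 2 of the 19 oocyte markers. Each such comparison called at most 9.14% of all probes. The part of the granulosa and cumulus markers in the results was not tested. Of 9 stroma and theca markers 1 was detected on every array (Acta2), with sums of 308.9 to 386.2 in Zfy2+Eif2s3y and at most 326.4 in the other batch 1 genotypes; of 5 blood markers none was. A Zfy1 probe (ILMN_1227623) was detected on all 3 arrays of Zfy1-lo and of Zfy1-hi, on 1 array of Zfy2+Eif2s3y and on no other array; the other Zfy1 probe was detected on all 18. An Eif2s3y probe (ILMN_1241001) was detected on the 3 Zfy2+Eif2s3y arrays alone, whereas the other (ILMN_1215914) was detected on none of these, on 2 of Zfy2-nf and on all 6 of batch 2. A Zfy2 probe was detected on no array of XX or Zfy2-nf and on every array of the other 4 genotypes, those with Zfy1 included.

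Respiratory transcripts were widely detected. A probe counted as detected on an array where its detection p-value was under 0.05, and 54 of the 74 probes (73%) were detected on all 18 arrays, against 30.5% of all probes. At least 1 probe was detected on every array for 40 of the 47 genes. Another 13 probes were detected on some arrays and 7 on none. For the tests, 62 probes of 45 genes were kept, those detected on at least 3 arrays: 7 of 7 for complex II, 6 of 7 for its assembly factors, 8 of 10 for complex III, 17 of 21 for complex IV and 24 of 29 for complex V. No probe was detected on all arrays of one genotype and on none of another. Levels below are normalized log2 intensities and do not compare one probe with another, since probes differ in how strongly they bind.

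The genotype means of the brightest probe lay close together for complexes II, III and IV and farther apart for complex V and the assembly factors. Sdhc, a membrane anchor of complex II, gave genotype means of 10.79 to 10.92 (ILMN_2594149). Uqcrc2, a core protein of complex III, gave 10.15 to 10.37. Cox6c, a small subunit of complex IV, gave 11.11 to 11.40. Atp5j2, the f subunit of complex V, gave 11.08 to 11.53, with its lowest mean in Zfy2. Among the assembly factors the brightest probe was for Sdhaf3 and spanned 7.99 to 8.94, the widest range of these 5. Across the 62 kept probes the SD between replicates of a genotype had a median of 0.19.

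Several subunits of complex IV come in a widely used form and a form restricted to certain tissues. The widely used Cox4i1, Cox6a1, Cox6b1, Cox7a2 and Cox7b were detected on all 18 arrays. Of the restricted forms, Cox6a2, known from heart and skeletal muscle, was also detected on all 18, with genotype means of 8.64 to 8.81. Cox6b2, known from testis, was detected on all 18 by 1 of its 2 probes (ILMN_2764551). Cox8c, another testis form, was detected on 16 arrays, missing on 1 of Zfy1-hi and 1 of Zfy2. Cox7a1, the heart and muscle form of Cox7a, was detected on 7 arrays, and Cox4i2, the lung form, on 3. Cox7b2 was detected on 1 array and Cox8b on none. The detected set thus held both forms for Cox6a and Cox6b. None of the 5 restricted forms that were kept was called in a comparison within a batch.

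**Figure D1:**
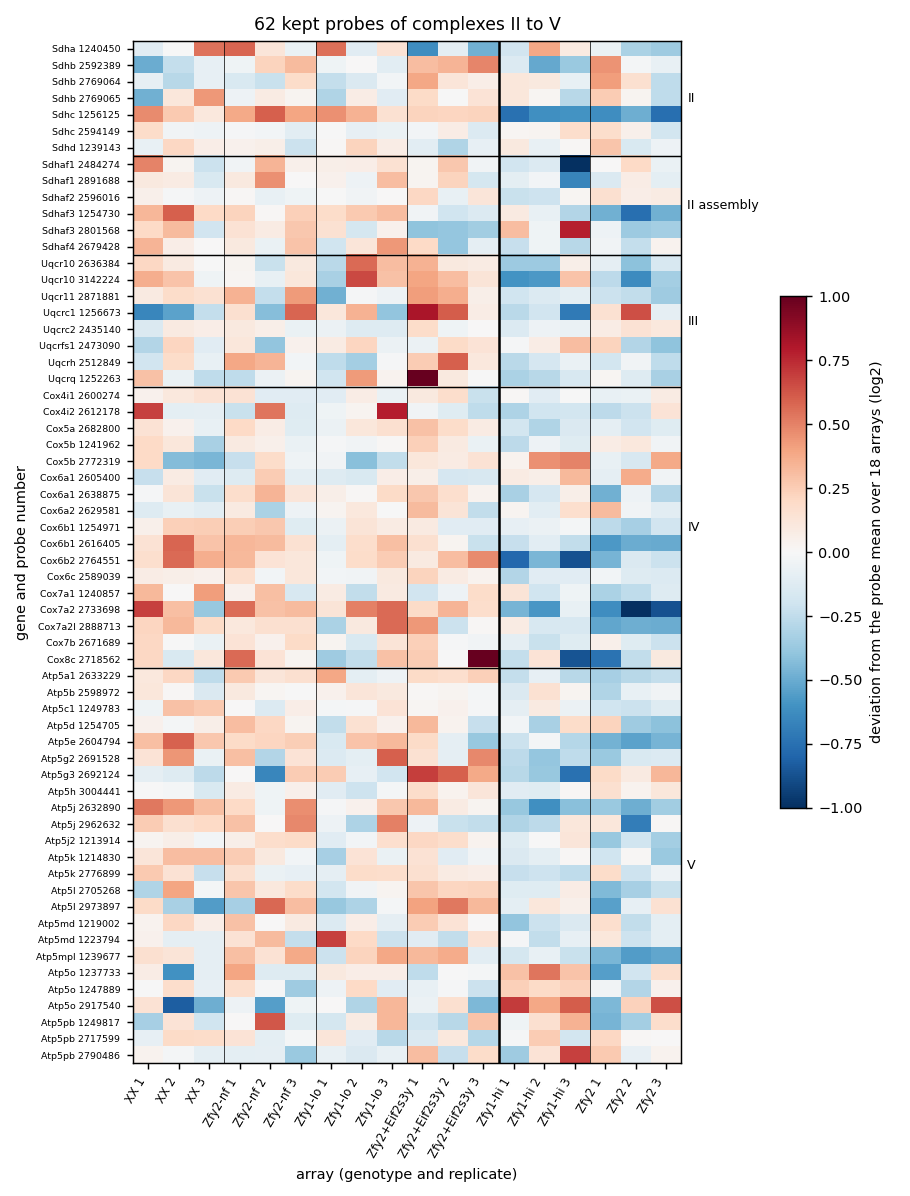
Heat map of the 62 kept probes (rows, gene and probe number, grouped by complex) over the 18 arrays (columns, genotype and replicate); colour is the deviation from the probe's mean over all arrays, in log2, cut at -1 and 1. The thick vertical line separates the batches; the 6 arrays to its right hold more of the low values, as in the first Sdhc row and the Cox6b2 row.

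Whether an inactive transgene or a single-copy Zfy1 transgene came with altered respiratory transcripts was asked first, since both genotypes share slides with XX. None of the 62 kept probes changed in Zfy2-nf against XX, where 0.0292% of all 23951 kept probes were called (limma, adjusted p under 0.05). The median difference was 0.03 (log2) for the respiratory probes and -0.01 for all probes. Unadjusted p-values were under 0.05 for 2 of 62 respiratory probes and for 8.78% of all. The 3 with the smallest p were Sdhb (ILMN_2592389) at 0.44 ± 0.16 (SE, adjusted p = 0.426), Uqcrc1 at 0.58 ± 0.27 (adjusted p = 0.568) and Atp5l (ILMN_2973897) at 0.41 ± 0.23 (adjusted p = 0.645).

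None changed in Zfy1-lo against XX either, where 0.00418% of all probes were called. The median difference was -0.01 for the respiratory probes and -0.00 for all. Unadjusted p-values were under 0.05 for 2 of 62, against 7.26% of all probes. Those with the smallest p were Atp5k (ILMN_1214830), the e subunit of complex V, at -0.33 ± 0.14 (adjusted p = 0.646), Atp5j (ILMN_2632890), coupling factor 6, at -0.32 ± 0.14 (adjusted p = 0.655), and Uqcr11 at -0.32 ± 0.17 (adjusted p = 0.707). The 95% interval of the Uqcr11 difference ran from -0.68 to 0.03, and that of Atp5k from -0.63 to -0.03.

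Zfy2 was examined in 2 comparisons that share no array: Zfy2+Eif2s3y against the mean of XX and Zfy2-nf within batch 1, and Zfy2 against Zfy1-hi within batch 2. On slide 3 the Zfy2 arrays took the upper 3 positions and the Zfy1-hi arrays the lower 3, so position and genotype cannot be told apart within batch 2. Zfy1-hi itself carries a multi-copy Zfy1 transgene, so a difference there does not tell which of the 2 genotypes changed. In the first, 1 respiratory probe rose and 1 fell, 2 of 62 (3.23%), where 9.14% of all probes were called, 4.19% as higher and 4.95% as lower. In the second, 0 of 62 were called, where 5.66% of all probes were called, 2.42% as higher and 3.24% as lower; unadjusted p-values were under 0.05 for 15 of 62, against 18.5% of all. The arrays did not overlap for 4 of 62 probes in the first (13.2% of all probes) and for 22 in the second (25.7% of all). The median difference of the respiratory probes was 0.01 in the first and -0.02 in the second. No respiratory probe differed by 1 or more (log2) in either. The count in batch 1 was 0 with slide as a fixed block or without Zfy2+Eif2s3y replicate 2, and 4 without XX replicate 3; the count in batch 2 reached 3 with another background correction. The difference between the 2 comparisons was called for 0 of 62, where 0.071% of all probes were called. An unadjusted p was under 0.05 for 1 of 62 there, against 6.57% of all. The smallest p there was that of Atp5j2, 0.36 ± 0.15 (adjusted p = 0.716), followed by Atp5o (ILMN_1237733) at 0.55 ± 0.26 and Atp5l (ILMN_2705268) at 0.41 ± 0.19 (both adjusted p = 0.763).

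Within these small differences, 6 of the 62 probes had an unadjusted p under 0.05 and the same sign in both comparisons, and none the opposite sign. Among all 23951 kept probes the numbers were 2308 and 48. The share with the same sign among the respiratory probes was thus close to that among all kept probes. The 6 were Atp5g3, both kept probes of Sdhaf3, 1 probe of Sdhb, Uqcrc1 and 1 probe of Cox6b1. The signs agreed for 39 of 62 respiratory probes (62.9%) and for 66.7% of all probes. Across the 62 probes, which share arrays and sometimes genes, Pearson's r between the comparisons was 0.50 and Spearman's rho 0.32, against 0.61 and 0.52 across all kept probes.

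**Figure D2:**
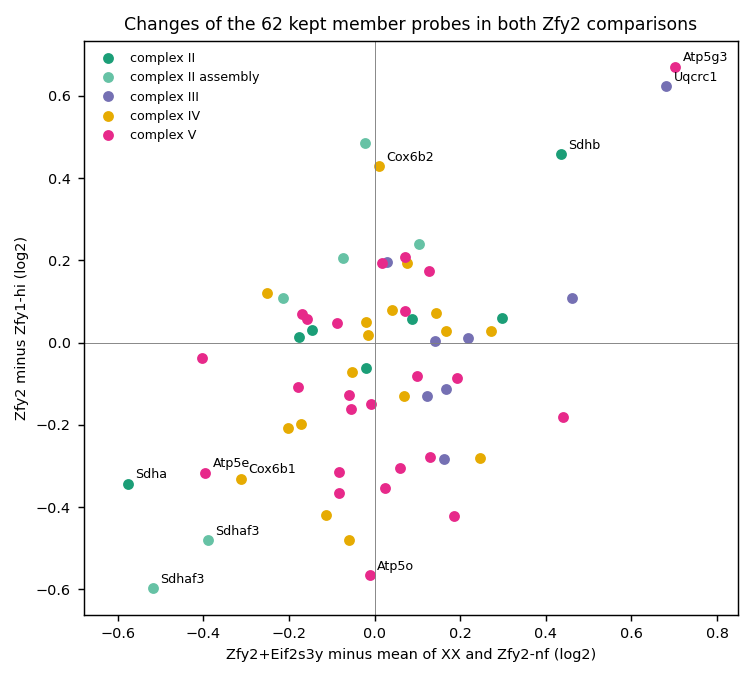
Scatter plot of the log2 difference of each of the 62 kept probes in Zfy2+Eif2s3y minus the mean of XX and Zfy2-nf (horizontal axis) and in Zfy2 minus Zfy1-hi (vertical axis), coloured by complex. Atp5g3, Uqcrc1 and Sdhb lie at the upper right and both Sdhaf3 probes at the lower left; most points lie near 0 on both axes.

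Atp5g3 encodes one of the proteins that supply the c ring of complex V, the rotor through which protons pass. Its log2 intensities were 8.20, 8.16 and 8.02 in XX and 8.29, 7.63 and 8.54 in Zfy2-nf. They were 8.98, 8.88 and 8.67 in Zfy2+Eif2s3y, each above all 6 arrays of XX and Zfy2-nf. It rose by 0.70 ± 0.17 (SE), 1.63-fold, with an adjusted p of 0.0161.

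In batch 2 Atp5g3 stood at 8.0, 7.91 and 7.54 in Zfy1-hi and 8.48, 8.38 and 8.61 in Zfy2. The groups did not overlap, and the difference of 0.67 ± 0.20 had an adjusted p of 0.0585, just outside the threshold; with array position as a covariate it was 0.29 (adjusted p = 0.57). In Zfy1-lo the values of 8.54, 8.20 and 8.09 overlapped those of XX. The call in batch 1 was lost with slide as a fixed block (0.61, adjusted p = 0.115), within slide 2 alone (0.47, adjusted p = 0.221), and without Zfy2+Eif2s3y replicate 1 (adjusted p = 0.0847) or replicate 2 (adjusted p = 0.0699). The difference between the 2 comparisons was 0.03, with a 95% interval of -0.52 to 0.59.

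Sdhaf3 encodes an assembly factor that, in yeast and flies, protects the iron-sulphur subunit of complex II, the product of Sdhb, while the complex is built. Its brighter probe (ILMN_1254730) gave 8.90, 9.16 and 8.77 in XX, 8.79, 8.57 and 8.80 in Zfy2-nf and 8.53, 8.36 and 8.43 in Zfy2+Eif2s3y. The Zfy2+Eif2s3y arrays lay below all 6 others, and the probe fell by 0.39 ± 0.12 (SE) with an adjusted p of 0.0495. In batch 2 it gave 8.66, 8.49 and 8.27 in Zfy1-hi and 8.09, 7.81 and 8.08 in Zfy2, again without overlap, a difference of -0.48 ± 0.14 (adjusted p = 0.0501).

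The second Sdhaf3 probe (ILMN_2801568) differed in the same direction in both. It stood at 7.22, 7.24 and 7.27 in Zfy2+Eif2s3y, below the 7.43 to 7.94 of XX and Zfy2-nf. In batch 2 the Zfy2 arrays, at 7.58, 7.26 and 7.29, lay below the 3 of Zfy1-hi at 7.94, 7.58 and 8.4, although the nearest pair was equal to 2 decimals. Its differences were -0.52 ± 0.16 (adjusted p = 0.0512) and -0.60 ± 0.18 (adjusted p = 0.0683). The batch 1 call of the brighter probe sat at the threshold and was lost under 14 of 22 other settings, with adjusted p from 0.0237 to 0.236; its difference there stayed between -0.43 and -0.33. In batch 2 the same probe was called under 8 of 18 settings.

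Sdhb, the iron-sulphur subunit itself, had 3 probes that did not behave alike. The first (ILMN_2592389) gave 6.79, 6.82 and 6.97 in Zfy2+Eif2s3y, 5.98, 6.24 and 6.40 in XX and 6.44, 6.70 and 6.79 in Zfy2-nf, so that it overlapped Zfy2-nf. Its difference was 0.44 ± 0.14 (adjusted p = 0.0583) there, or 0.25 with the authors' normalized intensities, and 0.46 ± 0.16 (adjusted p = 0.111) in Zfy2 against Zfy1-hi. The second (ILMN_2769064) differed by 0.30 ± 0.14 and 0.06 ± 0.16, and the third (ILMN_2769065) by 0.09 ± 0.17 and 0.06 ± 0.20. Sdha, the flavoprotein subunit, was measured by 1 dim probe, which differed by -0.58 ± 0.20 (adjusted p = 0.0781) and -0.34 ± 0.23 (adjusted p = 0.469).

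The 280 bases around the annotated start of Atp5g3, Sdhaf3 and Sdhb, 250 before it and 30 from it on, are shown because these genes had a probe among the 6 with the same sign and an unadjusted p under 0.05 in both comparisons; Uqcrc1 and Cox6b1 met the same rule and are not shown. Sequences are the RefSeq promoters of the GRCm38.p6 build, 5′ to 3′ on the gene's strand. Capitals mark matches, on either strand, to the core bound by NRF1, which reads GCGC, any base, TGCGC, or CCGGAA, the core bound by ETS factors such as GABP; AGGCCT, the palindromic core of the motif known for Zfx in mouse embryonic stem cells, was also searched and had no match in these 3 windows.
Atp5g3 (chr2:73911297-73911576, minus strand): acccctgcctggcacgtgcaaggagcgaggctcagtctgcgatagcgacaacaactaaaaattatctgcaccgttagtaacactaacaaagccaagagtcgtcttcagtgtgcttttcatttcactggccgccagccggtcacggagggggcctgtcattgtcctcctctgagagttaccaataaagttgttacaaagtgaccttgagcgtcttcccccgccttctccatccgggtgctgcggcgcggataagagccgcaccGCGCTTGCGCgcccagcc
Sdhaf3 (chr6:6955768-6956047, plus strand): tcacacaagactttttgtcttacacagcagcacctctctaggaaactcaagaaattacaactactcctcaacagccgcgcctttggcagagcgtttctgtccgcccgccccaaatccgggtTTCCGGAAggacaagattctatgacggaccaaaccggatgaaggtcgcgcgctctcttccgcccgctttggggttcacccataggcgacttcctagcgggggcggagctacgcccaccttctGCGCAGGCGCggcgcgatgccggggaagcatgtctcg
Sdhb (chr4:140961021-140961300, plus strand): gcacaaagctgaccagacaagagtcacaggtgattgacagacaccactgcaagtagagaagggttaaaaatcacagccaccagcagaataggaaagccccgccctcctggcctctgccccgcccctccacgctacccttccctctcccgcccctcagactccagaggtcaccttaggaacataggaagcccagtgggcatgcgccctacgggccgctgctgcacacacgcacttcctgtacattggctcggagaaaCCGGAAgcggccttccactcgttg
In Atp5g3 the capitals are 1 NRF1 core, which begins at base 13 counted from the start as base 1. In Sdhaf3 they are an ETS core on both strands, overlapping and first met at base -129, and an NRF1 core that begins at base -7. In Sdhb they are 1 ETS core at base 7.

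Promoters were in the table for 37 of the 47 genes. The NRF1 core was in 12 of the 37 windows (32.4%), against 4.98% of the windows of 27025 genes. The ETS core was in 18 (48.6%) against 16%. The Zfx core was in 1 (2.7%), that of Atp5e, against 10.9%. A match describes letters in this window and no binding.

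**Figure D3:**
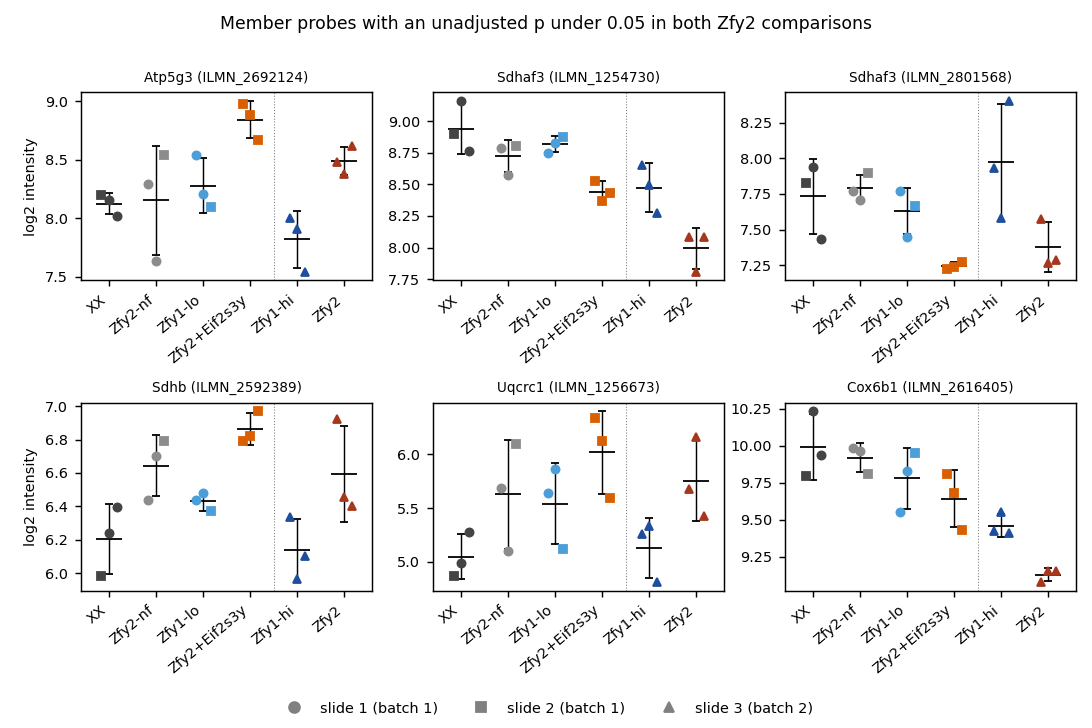
Log2 intensity on each array of the 6 respiratory probes with an unadjusted p under 0.05 and the same sign in both Zfy2 comparisons, by genotype; bars are the mean and SD of 3 arrays, symbols mark the slide and the dotted line separates the batches. In Atp5g3 the orange Zfy2+Eif2s3y arrays lie above XX and Zfy2-nf and the red Zfy2 arrays above Zfy1-hi; in both Sdhaf3 panels they lie below.

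In complex III all 8 kept probes were higher on average in Zfy2+Eif2s3y than in the mean of XX and Zfy2-nf, with a median difference of 0.16. Of all 23951 kept probes 11657 were higher. The 8 probes share arrays, and those of Uqcr10 share a gene. Called were 0 of the 8, against 9.14% of all probes. Uqcrc1, a core protein of the complex, had the largest difference. Its values were 6.34, 6.12 and 5.59 in Zfy2+Eif2s3y, 4.87, 4.99 and 5.28 in XX and 5.68, 5.10 and 6.10 in Zfy2-nf, which overlapped. The difference was 0.68 ± 0.24 (adjusted p = 0.0834), and 0.62 ± 0.27 (adjusted p = 0.227) in Zfy2 against Zfy1-hi. The other 7 lay between 0.03, for Uqcrc2, and 0.46, for Uqcrq. Uqcrq, near background, stood at 5.75 on 1 Zfy2+Eif2s3y array and at 4.72 and 4.61 on the others. In Zfy2 against Zfy1-hi 5 of the 8 were positive and 3 negative, with a median of 0.01.

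Complex IV had medians of -0.02 and 0.02 in these comparisons over 17 probes. Cox6b1, a subunit that faces the intermembrane space, was lowest in Zfy2, at 9.08, 9.16 and 9.15, against 9.42, 9.55 and 9.41 in Zfy1-hi (ILMN_2616405). The difference was -0.33 ± 0.14 (adjusted p = 0.211), and -0.31 ± 0.12 (adjusted p = 0.125) in Zfy2+Eif2s3y. The other Cox6b1 probe differed by -0.21 ± 0.12 and -0.20 ± 0.11, neither called. Over the 24 probes of complex V the medians were 0.00 and -0.12. Atp5e, the epsilon subunit, differed by -0.40 ± 0.14 (adjusted p = 0.0797) in Zfy2+Eif2s3y and by -0.32 ± 0.16 (adjusted p = 0.297) in Zfy2 against Zfy1-hi.

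The 2 genotypes of batch 2 were each set against XX. In Zfy2, 14 of 62 probes fell and none rose, where 22.4% of all probes were called, 11.3% as lower. In Zfy1-hi, 6 fell and 1 rose, where 10.4% of all were called, 5.47% as lower. The median differences were -0.14 and -0.16. They were 0.00 and 0.01 over all kept probes, where quantile normalization leaves the median little room to move. Over kept probes with a mean level of 8 or more they were -0.02 and -0.01. In each, 47 of the 62 differences were negative. The arrays did not overlap for 26 of 62 in Zfy2 and 24 in Zfy1-hi, against 39% and 31.6% of all probes. The share called in either direction was near the background, 22.6% in Zfy2 and 11.3% in Zfy1-hi. Among the 6302 bright probes 28.9% were called in Zfy2, 976 as lower, and 13.8% in Zfy1-hi, 480 as lower. Without XX replicate 2 the counts were 9 in Zfy2 and 3 in Zfy1-hi, where 16% and 6.08% of all probes were called. Without Zfy2 replicate 2 the count in Zfy2 was 9, again with 16% of all probes called. The comparisons share the XX arrays, and genotype and batch cannot be told apart in either.

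The 5 largest falls in Zfy2 against XX were those of Cox7a2, Sdhaf3, Sdhc, Atp5e and Cox6b1. Cox7a2, the widely used form of the Cox7a subunit, gave 7.78, 7.33 and 7.53 against 9.09, 8.70 and 8.02 in XX and fell by 1.06 ± 0.22 (adjusted p = 0.00312). Sdhaf3 (ILMN_1254730) fell by 0.95 ± 0.14 (adjusted p = 0.000223). Sdhc (ILMN_1256125) gave 7.62, 7.75 and 7.49 against 8.71, 8.50 and 8.35 and fell by 0.90 ± 0.13 (adjusted p = 0.00017). No array of Zfy2 reached the range of XX in these 3 probes. Atp5e fell by 0.88 ± 0.16 (adjusted p = 0.00103) and Cox6b1 (ILMN_2616405) by 0.86 ± 0.14 (adjusted p = 0.000565). The other 9 called probes differed by -0.82 to -0.33, with Atp5j (ILMN_2632890) at the lower end and Atp5j2 at the upper. The calls by complex were 1 of 7 for II, 1 of 6 for its assembly factors, 0 of 8 for III, 6 of 17 for IV and 6 of 24 for V. Of all kept probes 22.4% were called, 11.3% as lower.

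In Zfy1-hi against XX the 5 largest were Cox6b2, Atp5o, Sdhc, Atp5j and Atp5e. Cox6b2 (ILMN_2764551) gave 6.38, 6.70 and 6.29 against 7.33, 7.73 and 7.53 and fell by 1.07 ± 0.15 (adjusted p = 0.00043), or by 0.70 with the authors' normalized intensities. Sdhc (ILMN_1256125), at 7.5, 7.63 and 7.64, fell by 0.93 ± 0.13 (adjusted p = 0.000259). Atp5j (ILMN_2632890) gave 7.55, 7.32 and 7.52 against 8.47, 8.37 and 8.24 and fell by 0.89 ± 0.14 (adjusted p = 0.00105). All 3 were also below XX in Zfy2, where they were called too. Atp5e fell by 0.56 ± 0.16 (adjusted p = 0.0315), a call lost under 5 of 16 other settings. The other 2 called probes were Cox6b1 (ILMN_2616405), which fell by 0.53 ± 0.14 (adjusted p = 0.0256), and Sdhaf3 (ILMN_1254730), which fell by 0.47 ± 0.14 (adjusted p = 0.0388).

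Atp5o, the stalk subunit that takes its name from oligomycin sensitivity, had the single rise, of 0.95 ± 0.28 (adjusted p = 0.0393), at a probe detected on 1 of the 3 XX arrays (ILMN_2917540). Its values were 5.89, 5.58 and 5.8 in Zfy1-hi and 5.34, 4.37 and 4.71 in XX, without overlap. The brightest Atp5o probe (ILMN_1247889) differed by 0.19 ± 0.15 (adjusted p = 0.447) and the other (ILMN_1237733) by 0.58 ± 0.20 (adjusted p = 0.0761). The rise was lost under 8 of 15 other settings, and was 0.48 with normexp and 0.41 with the authors' normalized intensities.

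Probes of 1 gene also parted for Sdhaf3, Sdhc and Atp5j. The second Sdhaf3 probe (ILMN_2801568) had means of 7.73 in XX, 7.38 in Zfy2 and 7.97 in Zfy1-hi. It thus lay above XX in Zfy1-hi, where the first probe fell, and was called in neither comparison with XX. The brighter Sdhc probe (ILMN_2594149) differed from XX by -0.02 ± 0.12 in Zfy2 and 0.04 ± 0.12 in Zfy1-hi, while the dimmer fell in both. The second kept Atp5j probe (ILMN_2962632) differed by -0.39 ± 0.22 and -0.35 ± 0.22, not called. In 3 of 62 probes (4.84%), those of Sdhc, Cox6b2 and Atp5j named above, all 6 arrays of batch 2 lay below all 12 of batch 1, against 2.89% of all kept probes. None lay above, against 2.69%.

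The mean level was below its average over all arrays for every complex in both batch 2 genotypes. The deviation of each array from the probe's mean over 18 arrays, averaged over the 62 probes, was 0.05 ± 0.06 in XX, 0.09 ± 0.04 in Zfy2-nf, 0.04 ± 0.08 in Zfy1-lo and 0.09 ± 0.07 in Zfy2+Eif2s3y (SD, n = 3). It was -0.11 ± 0.03 in Zfy1-hi and -0.15 ± 0.03 in Zfy2. All 6 arrays of batch 2 lay below the 12 of batch 1. Zfy1-hi and Zfy2 each had the lowest mean for 21 of the 62 probes (33.9%), against 18.8% and 21.1% of all kept probes.

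For complex IV the means ran from -0.14 ± 0.03 in Zfy1-hi and -0.20 ± 0.04 in Zfy2 to 0.11 ± 0.08 in Zfy2-nf. For complex V they were -0.05 ± 0.05 and -0.15 ± 0.07 in those 2 genotypes. For complex II they were -0.12 ± 0.03 and -0.09 ± 0.20, with Zfy2 replicate 1 at 0.13. In batch 1 the means were also below 0 for the assembly factors in Zfy2+Eif2s3y, -0.07 ± 0.06, and for complex III in XX, -0.02 ± 0.06. For complex III the highest mean was 0.26 ± 0.18, in Zfy2+Eif2s3y. The summed intensity of the oocyte markers moved the same way, 50540 to 55390 in batch 2 and 58780 to 63950 in batch 1, as did the median intensity before normalization, 68.89 to 75.13 in batch 2 and at least 89.75 in batch 1. The part of either in the shift was not tested. In pooled oocytes, less RNA in each cell and fewer cells with the RNA cannot be told apart.

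**Figure D4:**
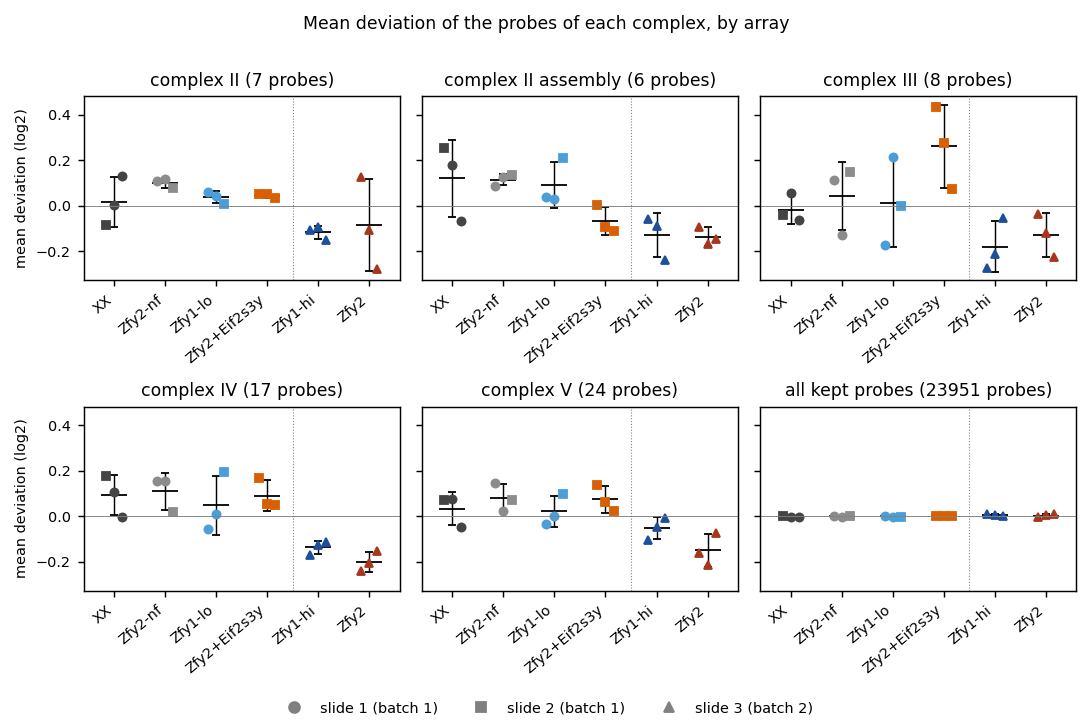
Mean deviation of the kept probes of each complex from their means over 18 arrays (log2), 1 point per array, by genotype, with the mean and SD of 3 arrays as bars; symbols mark slides and the dotted line separates the batches. In complexes IV and V the 6 arrays of batch 2 lie below 0. The average over all 23951 kept probes stays near 0, where quantile normalization holds it.

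Genes that form part of the complexes or work with them, but are outside the rule, were read from 6 lists. The lists held assembly factors and partners, nuclear regulators and substrate carriers. One list, of complex II assembly factors, repeats genes described above; the others held 88 kept probes of 59 genes. None was called in Zfy2-nf or Zfy1-lo against XX. In Zfy2+Eif2s3y 8 probes rose and 2 fell, where 9.14% of all probes were called, and in Zfy2 against Zfy1-hi 5 rose and 2 fell, where 5.66% were called. None differed between the 2 comparisons past the threshold.

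Of the regulators, 23 kept probes of 16 genes, 3 rose and 2 fell in Zfy2+Eif2s3y, where 4.19% and 4.95% of all probes did. In Zfy2 against Zfy1-hi 3 rose and 1 fell, where 2.42% and 3.24% of all probes did. Ppargc1a, the coactivator PGC-1 alpha of mitochondrial biogenesis, rose in both. It stood at 6.61, 6.23 and 6.30 in Zfy2 and at 4.5, 4.89 and 4.56 in Zfy1-hi, where 1 of 3 arrays detected it. The rise was 1.73 ± 0.24 (adjusted p = 0.000441) and was called under all 18 other settings, but its size was 0.88 with normexp background correction and 0.78 with the authors' normalized intensities. In Zfy2+Eif2s3y, at 5.81, 5.67 and 6.48, it rose by 0.90 ± 0.21 (adjusted p = 0.0125), or by 0.44 and 0.40 under those settings. The nearest XX array, at 5.8, reached that range. The call in Zfy2+Eif2s3y was lost with slide as a fixed block (0.71, adjusted p = 0.121), within slide 2 (0.72, adjusted p = 0.25) and without Zfy2+Eif2s3y replicate 3 (0.65, adjusted p = 0.0914).

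Polrmt, the RNA polymerase that transcribes mitochondrial DNA, fell in both. It gave 8.0, 7.76 and 8.04 in Zfy2+Eif2s3y, below the 8.74 to 9.16 of XX and Zfy2-nf, a fall of 0.99 ± 0.16 (adjusted p = 0.000917), and was called under all 22 other settings, with adjusted p up to 0.0499. It gave 7.80, 8.35 and 8.16 in Zfy2 and 8.83, 8.74 and 8.93 in Zfy1-hi, a fall of 0.73 ± 0.18 (adjusted p = 0.0267) that was lost under 8 of 18 settings, with adjusted p from 0.0153 to 0.267. In both comparisons the groups did not overlap.

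Gabpb1, the beta subunit of GABP, rose in Zfy2 against Zfy1-hi at both probes, by 0.60 ± 0.15 (adjusted p = 0.0283) and 0.61 ± 0.17 (adjusted p = 0.0434). In Zfy2+Eif2s3y its first probe (ILMN_2646380) rose by 0.44 ± 0.13 (adjusted p = 0.0441), and its second differed by 0.46 ± 0.15 (adjusted p = 0.0606). Across batches the first probe differed from XX by 0.46 ± 0.15 (adjusted p = 0.0391) in Zfy2. In Zfy1-hi it differed by -0.14 ± 0.15, not called. The second differed from XX by 0.21 ± 0.17 in Zfy2 and -0.40 ± 0.17 in Zfy1-hi, neither called. The call in Zfy2+Eif2s3y was lost under 12 of 22 other settings, and those of the 2 probes in Zfy2 against Zfy1-hi under 8 of 18 and 10 of 17. Gabpa, the subunit that binds DNA, differed by 0.05 ± 0.17 and -0.21 ± 0.20, and Nrf1 by 0.53 ± 0.28 and 0.05 ± 0.33, none called. Pprc1, a relative of Ppargc1a, fell in Zfy2+Eif2s3y by 0.62 ± 0.14 (adjusted p = 0.0103), or by 0.41 and 0.37 with normexp and the authors' normalized intensities, and Mterf3, a regulator of mitochondrial transcription, rose there by 0.57 ± 0.14 (adjusted p = 0.0174). Within slide 2, with fewer arrays, the differences were -0.63 and 0.61 but the calls were lost (adjusted p = 0.104 and 0.131). The calls were also lost, that of Pprc1 without Zfy2+Eif2s3y replicate 2 and that of Mterf3 without replicate 1 or 3.

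**Figure D5:**
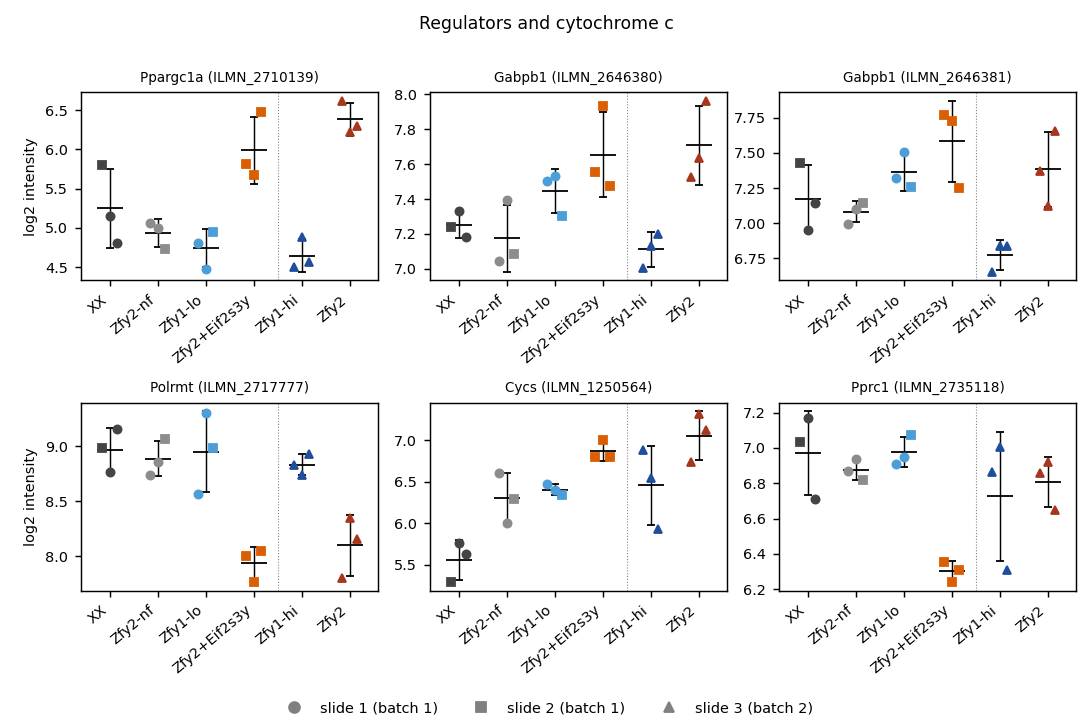
Log2 intensity on each array of Ppargc1a, both probes of Gabpb1, Polrmt, Cycs and Pprc1, by genotype; bars are the mean and SD of 3 arrays, symbols mark slides and the dotted line separates the batches. Ppargc1a is high and Polrmt low in Zfy2+Eif2s3y and Zfy2, while Pprc1 is low in Zfy2+Eif2s3y.

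Cycs, the cytochrome c that links complexes III and IV, rose in Zfy2+Eif2s3y by 0.94 ± 0.19 (adjusted p = 0.00525), at 6.8, 7.0 and 6.8 against 5.29 to 5.76 in XX and 6.00 to 6.61 in Zfy2-nf. It was called under all 22 other settings, with adjusted p up to 0.045, at 0.56 with normexp and 0.51 with the authors' normalized intensities. In batch 2 it overlapped, at 6.74, 7.31 and 7.12 in Zfy2 and 6.88, 6.55 and 5.94 in Zfy1-hi, and was not called. XX had the lowest mean of all genotypes, 5.56, against 6.30 in Zfy2-nf and 6.41 in Zfy1-lo. Across batches Cycs was also higher than in XX, by 0.89 ± 0.22 in Zfy1-hi (adjusted p = 0.0167). In Zfy2 it was higher by 1.49 ± 0.22 (adjusted p = 0.000252). Among the substrate carriers, 4 of 11 kept probes rose in Zfy2+Eif2s3y, where 4.19% of all probes did. None rose in Zfy2 against Zfy1-hi, where 2.42% of all did. The rises were those of Slc25a4, an exchanger of ADP and ATP, by 0.51 ± 0.14 (adjusted p = 0.0303), both probes of the outer membrane channel Vdac1, by 0.40 ± 0.10 (adjusted p = 0.0184) and 0.75 ± 0.22 (adjusted p = 0.0388), and Vdac2, by 0.48 ± 0.12 (adjusted p = 0.0182). Within slide 2 alone, with fewer arrays, the differences were 0.39 for Slc25a4, 0.52 and 0.68 for Vdac1 and 0.37 for Vdac2, with adjusted p-values from 0.142 to 0.275. Among all other settings, the calls were lost under 9 of 22 for Slc25a4, 4 of 22 and 9 of 21 for Vdac1 and 5 of 22 for Vdac2.

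In Zfy2 against Zfy1-hi, Tmem70, which helps to assemble complex V, rose by 1.09 ± 0.30 (adjusted p = 0.0415), or by 0.52 with normexp and 0.46 with the authors' normalized intensities, and was detected on 1 of 3 Zfy1-hi arrays. Lyrm7, an assembly factor of complex III, was detected on no Zfy1-hi array and was at least 1.34-fold higher in Zfy2 (adjusted p = 0.0389). Cox15, which makes haem a for complex IV, was detected on no Zfy2 array and was at least 1.62-fold lower there (adjusted p = 0.0389). These bounds set the higher group against the lowest level of a detected probe on each array. They hold for the normalization used here. Under other settings the log2 difference was as small as 0.31 for Lyrm7 and -0.36 for Cox15, less than the bounds. The calls of Tmem70, Lyrm7 and Cox15 were lost under 7 of 18, 8 of 17 and 10 of 18 other settings. The XX means of Tmem70, Lyrm7 and Cox15, from batch 1, were 5.34, 4.87 and 5.02. Each lay between the means of Zfy1-hi and Zfy2. Of the 34 kept probes for complex IV assembly, 0 were called in Zfy2+Eif2s3y, where 9.14% of all probes were. In Zfy2 against Zfy1-hi 1 was called, that of Cox15, where 5.66% of all probes were.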

How the data were processed

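Per the file headers, the authors deposited bead intensities that were not normalized, with a detection p-value for each probe and array; per the submitters' processing notes they come from GenomeStudio, with no version given. A second deposited table of intensities, normalized between arrays by a method not given in the sources used here, served as an alternative. Total RNA had been amplified with NuGen Ovation Pico WTA, per the labels' protocols.

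Intensities were background corrected and quantile normalized with neqc in limma 3.58.1 (R 4.3.3; offset 16, log2). Probes with a detection p-value under 0.05 on at least 3 of 18 arrays were kept, 23951 of 45281. One model with a mean per genotype (lmFit, eBayes) gave every comparison, with Benjamini-Hochberg adjustment over all kept probes and calls at an adjusted p under 0.05. Errors of differences are standard errors, with 12 residual and 4.19 prior degrees of freedom; the number of arrays limits the precision. The pools were separate samples of oocytes, but the labels do not say which females each came from. An exact test of 3 against 3 arrays cannot go below p = 0.1.

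Gene symbols came from the platform annotation: 34885 probes had 1 symbol, 18 several and 10378 none. The members and lists were chosen with earlier results of these data known. Named were called probes, the 3 smallest p-values where fewer than 3 were called, the brightest probe of each complex, tissue-restricted forms with their partners, all probes of genes whose probes disagreed, the 5 largest called changes across batches and called pathway genes. The probes shared by both Zfy2 comparisons at an unadjusted p under 0.05, Sdha, Atp5e, and the uncalled Gabpa and Nrf1 were added after their values were seen. Replicate numbers occur in every genotype. Deviations of same-numbered arrays of different genotypes had a median correlation of -0.00284, over 0.1 in 2 of 45 pairs. For differently numbered arrays it was 0.00082, over 0.1 in 4 of 90. No pairing by number was seen in these values, which cannot show that there was none. The model used no pairing.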

Additional observations from a re-analysis of the deposited data

How the results depend on the processing

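The 48 named changes kept their direction under all alternatives run, 916 values. No respiratory probe was called in Zfy2-nf or Zfy1-lo against XX, or in the difference of the 2 Zfy2 comparisons, under any alternative run (18, 18 and 26). For Zfy2+Eif2s3y the count of 2 became 4 with normexp background correction, with the authors' normalized intensities and with the strict filter (detection p under 0.01 on all 3 arrays of a group); it became 1 with slide as a random block or array position as a covariate, and 0 with slide as a fixed block or within slide 2. With the replicate number as a block it was 1, although no pairing by number was seen. Leaving out 1 array gave 0 to 4. For Zfy2 against Zfy1-hi the count of 0 became 3 with normexp and with the authors' normalized intensities, 2 with the strict filter or 1 probe per gene, and 1 without a filter, with slide as a random block, or with probes of 1 gene symbol only, a setting chosen after seeing the data; leaving out 1 array gave 0 to 1. Zfy2 against XX gave 9 to 12 calls in place of 14 with 1 array left out, and 10 to 14 otherwise. Zfy1-hi against XX gave 4 in place of 7 with median centring, 3 with 1 probe per gene or array position, and 3 to 7 with 1 array left out. Over all probes the 2188 calls for Zfy2+Eif2s3y became 1111 with slide as a fixed block, 276 within slide 2, 1379 of 12184 with 1 probe per gene, and 1222 or 1173 without its replicate 1 or 2. The 1355 for Zfy2 against Zfy1-hi became 445 with array position as a covariate and 809 to 897 without Zfy1-hi replicate 1, 2 or 3 or Zfy2 replicate 1 or 2. Those of Zfy1-hi against XX, 2482, became 1447 with array position, 1149 of 12184 with 1 probe per gene, and 1456 to 1569 without XX replicate 2 or Zfy1-hi replicate 1, 2 or 3, and those of Zfy2 against XX, 5366, became 2828 of 12184. Fewer arrays or probes enter some of these fits; otherwise the cause was not tested. No scaling moved the median difference of all probes by 0.1 or more. Each scaling brings the arrays to a common level, so these medians cannot show a shift of all probes. Signals near background limit the dim probes, such as ILMN_2917540 of Atp5o and those of Cox7a1, Lyrm7 and Cox15.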
